A study of Mus musculus with 74 samples.

Results

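The genes described here are 42 genes of the cell cycle and of DNA replication, taken by symbol from a list and all found among the 24851 genes of the RNA tables. They were measured in mouse RAW264.7 cells, a macrophage-like line that divides in culture, and in 2 lines derived from it that carry the numbers 264 and 3205. The study asked how histone H3.3 and its phosphorylation shape transcription after stimulation with lipopolysaccharide (LPS), a bacterial cell wall component. RNA was sequenced from line 264, line 3205 and unedited RAW264.7 at 0, 60 and 120 min of LPS, with 2 libraries in each of the 9 groups. The study describes hypomorphic lines and CRISPR-made lines without H3f3a and H3f3b, the genes that encode H3.3, but whether line 264 or line 3205 is of either kind is not stated in the labels. Whether a line is 1 clone is not stated either, so an effect of editing and a trait of the picked cells cannot be told apart. Nothing says that the 2 libraries of a group came from separate cultures, so the p-values speak only of the spread among these libraries, which may be technical. The LPS dose used on the lines is not stated in the labels.

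The labels gave RAW264.7 as the source and bone marrow derived macrophage as the tissue of all 3 lines. The summed macrophage markers stood between 125861 and 205498 normalized reads in line 264, 189264 and 258492 in line 3205 and 359184 and 474858 in RAW264.7. Such a sum leans on genes with many reads, such as Lyz2, with up to 294095. B cell, T cell, fibroblast and neutrophil marker sums stayed at or below 152.4 in every library. B cell sums ran from 22.2 to 152.4 in line 3205, with Cd79b up to 148.1, and reached 6.1 in line 264 and 5.4 in RAW264.7. Neutrophil sums ran from 18.8 to 36.8 in line 3205 and reached 11.2 in line 264 and 10.4 in RAW264.7. Dendritic cell marker sums ran from 108.5 to 160 in line 264, 33.3 to 116.4 in line 3205 and 88 to 367.6 in RAW264.7. H3f3a ran from 172 to 236 normalized reads in line 264, from 37.5 to 76.2 in line 3205 and from 2055 to 3109 in RAW264.7. H3f3b RNA was present in all 3 lines, from 5642 to 17765 in line 264, 7177 to 13284 in line 3205 and 13623 to 34155 in RAW264.7. Libraries held from 13084927 to 53860392 counted reads. A normalized read is a read count divided by 1 size factor per library, so values of a gene can be compared between libraries, but not levels between genes.

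A dividing cell licenses its replication origins in G1, copies its DNA in S phase and separates the chromosomes in mitosis. D-type and E-type cyclins with their kinases inactivate the retinoblastoma protein, which frees E2F factors to turn on replication genes. Genes of mitosis are transcribed later, in G2, through other promoter elements. In a culture that divides out of step, bulk RNA cannot tell a change in the share of cells in a phase from a change in RNA per cell.

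Before any comparison, the 2 libraries of a group differed from each other in the replication genes. The 14 genes of origin licensing and of the fork had a median log2 value 0.156 to 0.74 higher in replicate 2 than in replicate 1, in each of the 9 groups. Over all genes the median of this difference lay between -0.034 and 0. The median of the 14 genes was widest in line 3205 at 0 min, where all 14 genes were higher in replicate 2. Mcm2, a subunit of the replicative helicase, had 9100 and 16583 normalized reads in those 2 libraries. The 17 mitotic genes differed less, by a median of -0.095 to 0.492. Medians within each replicate number are therefore given beside the pooled ones for line 3205 against RAW264.7 and for some other comparisons, not for all. The part of this spread in the results was not tested.

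**Figure D1:**
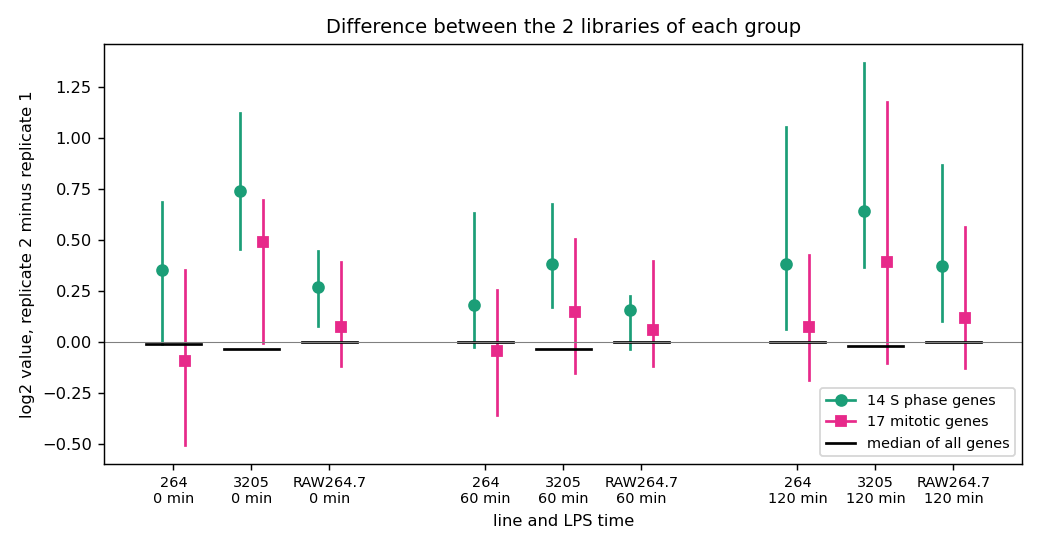
Difference between the 2 libraries of each group, as log2 value of replicate 2 minus replicate 1, for the 3 lines at 0, 60 and 120 min. Points are medians of the 14 S phase genes and of the 17 mitotic genes, thin lines run from the lowest to the highest gene, and black bars are the median of all genes. The S phase medians lie above the all-gene median in every group, up to 0.74 in line 3205 at 0 min.

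All 42 genes passed the filter on low values. Differences were tested with limma on log2(normalized reads + 1), and a call is an adjusted p (Benjamini-Hochberg over all genes tested) below 0.05. Line 264 against RAW264.7 gave 4 calls among the 42 at 0 min (3 higher, 1 lower), where 13.2% of all 17301 genes were called (7.61% higher, 5.57% lower). It gave 3 at 60 min, all higher, against 15.3% of all genes (8.46% higher), and 5 at 120 min, all higher, against 13.5% of 17450 genes (7.33% higher). Line 3205 against RAW264.7 gave 7 calls at 0 min (1 higher, 6 lower), against 14.3% of all genes (8.42% higher, 5.89% lower). It gave 6 at 60 min (4 higher, 2 lower), against 15.4% (8.95% higher, 6.46% lower), and 3 at 120 min, all higher, against 13.9% (7.94% higher). Line 3205 against line 264 gave 3, 2 and 2 calls at 0, 60 and 120 min, all lower, against 10.4%, 10.2% and 9% of all genes (4.92%, 4.7% and 4.22% lower). As a share of the 42, the calls in either direction were 9.52%, 7.14% and 11.9% for line 264, 16.7%, 14.3% and 7.14% for line 3205 and 7.14%, 4.76% and 4.76% between the derived lines. Of these 9, line 3205 at 0 min alone lay above the share of all genes. The replicate numbers were taken to pair the libraries, from a correlation between groups in these same data. With the number as a block there were more calls among all genes too. For line 264 the block gave 12, 10 and 14 calls of 42 at 0, 60 and 120 min, where 23.3%, 26.9% and 25.3% of all genes were called. For line 3205 it gave 16, 20 and 14, where 26.5%, 27.9% and 27.2% were, and between the derived lines 14, 8 and 7, where 21.2%, 20.4% and 19.5% were. Leaving out 1 library at a time without the block left 1 to 4 calls for line 264. For line 3205 it left 1 to 5 calls, or 15 at 0 min without line 3205 replicate 2.

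**Figure D2:**
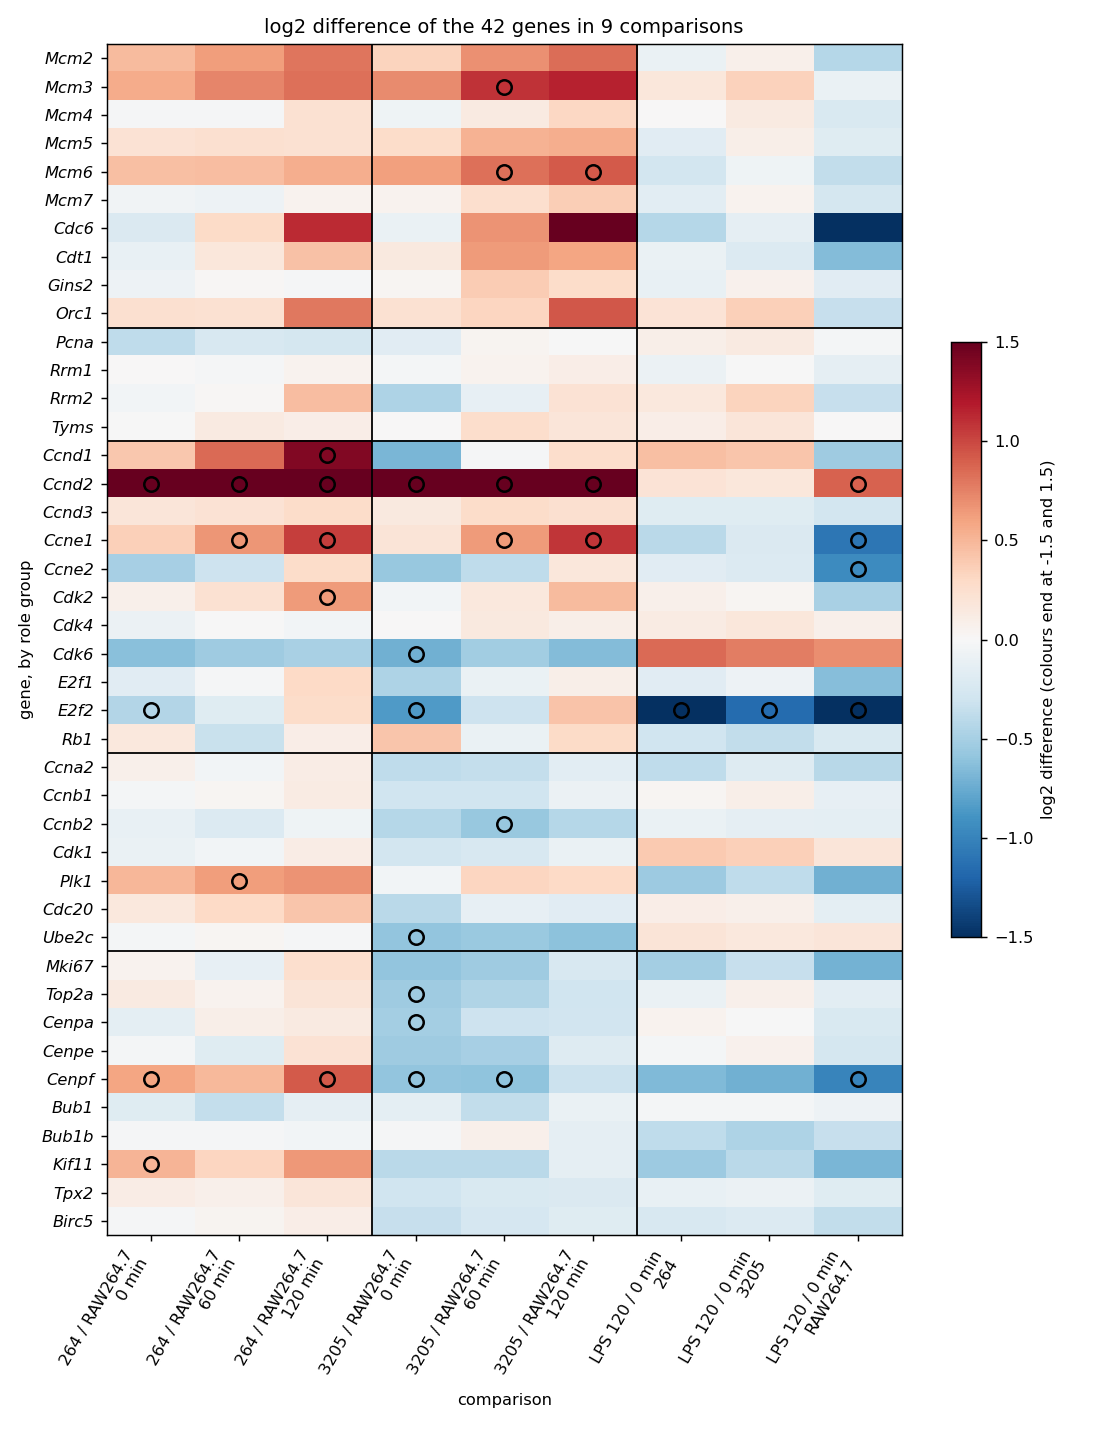
log2 difference of each of the 42 genes (rows, by role group) in 9 comparisons (columns): line 264 against RAW264.7, line 3205 against RAW264.7, and 120 min of LPS against 0 min in each line. Red is higher and blue lower in the first-named group, colours end at -1.5 and 1.5, and circles mark an adjusted p below 0.05; Ccnd2 is red in all 6 line columns and E2f2 blue in all 3 LPS columns.

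The widest difference of the 42 was in Ccnd2 (chr6:127125162-127152188, GRCm38.p6), which encodes cyclin D2, a partner of the kinases that start the passage through G1. At 0 min it had 3914 and 5897 normalized reads in line 264, 2625 and 4199 in line 3205 and 128 and 140 in RAW264.7. At 60 min it had 3792 and 5578 in line 264, 3439 and 4393 in line 3205 and 95 and 71.3 in RAW264.7. After 120 min it stood at 5212 and 5920 in line 264, 3932 and 3524 in line 3205 and 246 and 253 in RAW264.7. Every library of either derived line lay above every RAW264.7 library. Line 264 was higher by 5.15 ± 0.29 on the log2 scale at 0 min (SE, n = 2 each; limma adjusted p = 3.02e-06), 5.79 ± 0.29 at 60 min (1.33e-06) and 4.47 ± 0.24 at 120 min (2.45e-06). Line 3205 was higher by 4.62 ± 0.29 (limma adjusted p = 6.27e-06), 5.54 ± 0.29 (2.19e-06) and 3.89 ± 0.24 (7.53e-06). These 6 calls remained without any 1 library.

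The other D-type cyclins differed less from RAW264.7. Ccnd3, cyclin D3, had log2 differences from RAW264.7 of 0.15 to 0.28 and was not called, though line 3205 at 60 min was called under the replicate block (adjusted p = 0.0473). Ccnd1, cyclin D1, had 35365 and 38068 normalized reads in line 264 at 120 min, 14985 and 18970 in line 3205 and 12770 and 15501 in RAW264.7. Line 264 was 1.38 ± 0.31 above RAW264.7 (limma adjusted p = 0.0159), and the call was lost without any 1 of the 4 libraries compared (adjusted p 0.0514 to 0.122). Line 3205 at 120 min was 0.26 ± 0.31 above RAW264.7, with overlapping libraries and no call. Line 3205 minus line 264 was -1.09 ± 0.32, -0.87 ± 0.32 and -1.12 ± 0.31 at 0, 60 and 120 min, without a call (limma adjusted p = 0.0602, 0.138 and 0.0538) and with a call in each case under the replicate block (0.0116, 0.0344 and 0.0063).

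Ccne1 (chr7:38097984-38107490), cyclin E1, which activates Cdk2 at the start of S phase, was called higher in both derived lines at 60 and 120 min. At 0 min line 264 was called only under the replicate block (log2 difference 0.36 ± 0.16, limma adjusted p = 0.207, and 0.0339 under the block), and line 3205 was not called by either (0.20 ± 0.16, limma adjusted p = 0.524, and 0.222 under the block). At 60 min it had 2666 and 2834 normalized reads in line 264, 2651 and 2770 in line 3205 and 1685 and 1790 in RAW264.7. At 120 min it had 1745 and 2301 in line 264, 1741 and 2395 in line 3205 and 782 and 1211 in RAW264.7. The derived lines did not overlap with RAW264.7 at either time. Line 264 was higher by 0.66 ± 0.16 at 60 min (limma adjusted p = 0.0215) and 1.04 ± 0.26 at 120 min (0.0253). Line 3205 was higher by 0.64 ± 0.16 (limma adjusted p = 0.0248) and 1.07 ± 0.26 (0.0225). The 60 min calls were lost without any 1 library compared (adjusted p 0.0785 to 0.135). The 120 min calls were lost without RAW264.7 replicate 1 or without replicate 2 of the derived line, with an adjusted p up to 0.208 for line 264 and 0.185 for line 3205.

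Cdk2 itself had 3100 and 3594 normalized reads in line 264 at 120 min and 1966 and 2326 in RAW264.7. It was higher by 0.64 ± 0.16 there (limma adjusted p = 0.0256), a call lost in 3 of 4 fits that left out 1 library, all but the one without RAW264.7 replicate 2 (adjusted p up to 0.195). Cdk6, a partner of the D-type cyclins, had 1109 and 881 normalized reads in line 3205 at 0 min and 1968 and 1344 in RAW264.7. It was lower by 0.72 ± 0.21 (limma adjusted p = 0.0438), a call kept only when RAW264.7 replicate 2 was left out (adjusted p up to 0.297 in the other 3 fits). Its log2 difference from RAW264.7 lay between -0.72 and -0.48 in both lines at all times, and all 6 were called under the block. E2f2 (chr4:136172274-136196057), an activating E2F, had 1648 and 1410 normalized reads in line 264 at 0 min, 1139 and 1167 in line 3205 and 2090 and 2054 in RAW264.7. None of the 3 groups overlapped. Line 3205 was lower by 0.85 ± 0.12 (limma adjusted p = 0.00101), which held without any 1 library. Line 264 was lower by 0.44 ± 0.12 (limma adjusted p = 0.0319), which was lost without either RAW264.7 library or without line 264 replicate 2 (adjusted p up to 0.174).

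**Figure D3:**
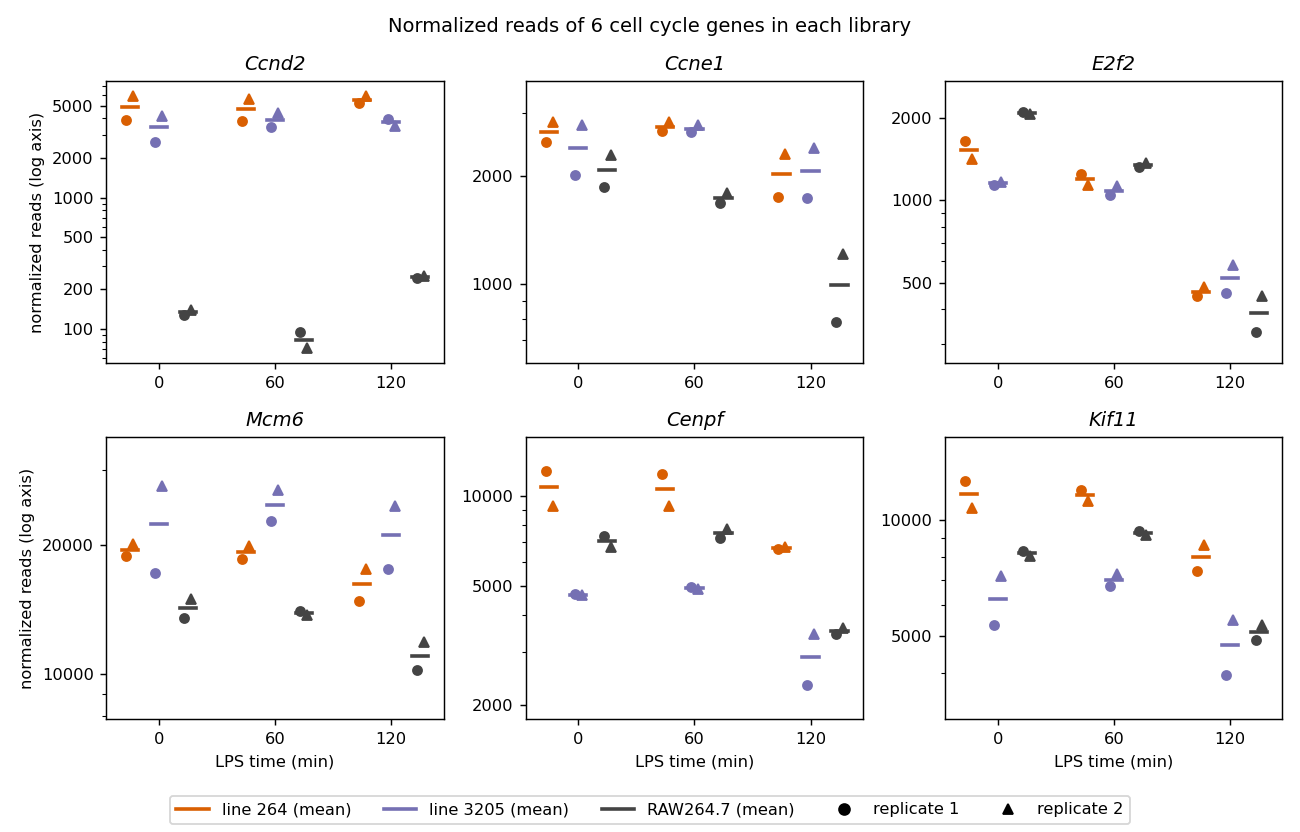
Normalized reads (log axis) of 6 genes in every library of line 264, line 3205 and RAW264.7 at 0, 60 and 120 min of LPS. Circles are replicate 1, triangles replicate 2 and bars the mean of the 2 libraries; Ccnd2 lies between 71.3 and 253 in RAW264.7 and between 2625 and 5920 in the derived lines, E2f2 is lowest at 120 min in all 3 lines, and Cenpf is highest in line 264 at each time.

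In line 3205 after LPS the medians of the licensing genes lay above RAW264.7 and those of the mitotic genes below it, with few single calls. At 60 min the 10 licensing and helicase genes had a median log2 difference from RAW264.7 of 0.58, from 0.13 to 1.09, where the median of all genes was 0.025. All 10 were above 0, against 52.3% of all genes. In 9 of the 10, both line 3205 libraries lay above both RAW264.7 libraries, which held for 30.4% of all genes. Only Mcm3 and Mcm6 were called, where 8.95% of all genes were called higher, and 7 of the 10 were called under the replicate block, where 15.5% of all genes were called higher. At 120 min the median was 0.718 with 10 of 10 above 0 and 6 not overlapping (27.4% of all genes), and 1 was called (7.94% of all genes higher), or 7 under the block (14.7% higher). The 7 at 60 min were Mcm2, Mcm3, Mcm5, Mcm6, Cdc6, Cdt1 and Gins2. At 0 min the median was 0.187 and none was called, or 2 under the block (14.4% of all genes higher). That median was 0.579 without line 3205 replicate 1 and -0.205 without its replicate 2.

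Mcm3, a helicase subunit, had 24570 and 34538 normalized reads in line 3205 at 60 min and 12697 and 14822 in RAW264.7. It was higher by 1.09 ± 0.29 (limma adjusted p = 0.0332), a call lost without any 1 library compared (adjusted p 0.0523 to 0.212). Mcm6 (chr1:128331575-128359705), another subunit, had 22784 and 26824 in line 3205 at 60 min and 14067 and 13737 in RAW264.7. At 120 min it had 17590 and 24674 in line 3205 and 10214 and 11890 in RAW264.7. These groups did not overlap. The log2 difference was 0.83 ± 0.19 at 60 min (limma adjusted p = 0.0172) and 0.92 ± 0.23 at 120 min (0.027). Each call survived only the fit without line 3205 replicate 1 (adjusted p up to 0.125 and 0.183 in the others). Cdc6, the loader of the helicase, had 1097 and 2701 normalized reads in line 3205 at 120 min, 952 and 1747 in line 264 and 446 and 788 in RAW264.7. It was not called in either line, and was called in both under the block (log2 difference 1.54, adjusted p = 0.000567, for line 3205, and 1.12, 0.00376, for line 264).

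For line 264 against RAW264.7 the licensing medians were 0.103, 0.234 and 0.497 at 0, 60 and 120 min, with 5, 8 and 9 of 10 genes above 0 and no call, or 3, 3 and 5 calls under the block, where 12.7%, 14.3% and 13.5% of all genes were called higher. Over all 42 genes line 264 had a median of 0.229 at 120 min, with 34 above 0 and 21 higher without overlap, where 25.8% of all genes were. Line 3205 minus line 264 in the same 10 genes had medians of 0.109, 0.343 and 0.299, again with no call. Under the block 1 of the 10 was called, at 60 min. The median at 0 min changed sign between the replicates, from -0.157 in replicate 1 to 0.314 in replicate 2. The fork clamp and nucleotide supply genes (Pcna, Rrm1, Rrm2 and Tyms) had medians between -0.1 and 0.143 in both lines against RAW264.7 at all times and no call. Under the block Pcna, the clamp that holds the polymerase on DNA, was called lower in line 264 at 0 min. It had 5611 and 6553 normalized reads in line 264 and 7427 and 8390 in RAW264.7, without overlap, a log2 difference of -0.38 ± 0.19 (limma adjusted p = 0.273, and 0.0342 under the block).

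The 17 genes of the mitotic groups had medians below 0 in line 3205. At 0 min all 17 were below 0, with a median log2 difference from RAW264.7 of -0.405, and 11 did not overlap, where 23.4% of all genes were lower without overlap. At 60 min 15 were below 0, with a median of -0.355, and 14 were lower without overlap, against 27.8% of all genes. At 120 min 16 were below 0, with a median of -0.182, and 6 were lower without overlap, against 26% of all genes. Calls were 4, 2 and 0 of 17 at 0, 60 and 120 min, all lower, where 5.89%, 6.46% and 5.99% of all genes were called lower. Under the block they were 9, 8 and 3, where 12.1%, 12.4% and 12.6% of all genes were called lower. In line 264 the same genes had medians of -0.016, 0.031 and 0.135. Line 3205 minus line 264 had medians of -0.457, -0.331 and -0.397 at the 3 times, with 12, 15 and 12 of 17 lower without overlap, where 20.3%, 25.1% and 22.4% of all genes were.

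Within each replicate number the mitotic medians of line 3205 against RAW264.7 kept their sign at 0 and 60 min. They were -0.554 in replicate 1 and -0.183 in replicate 2 at 0 min, and -0.389 and -0.338 at 60 min. At 120 min they were -0.352 and -0.022, and in replicate 2 only 10 of the 17 genes lay below 0 and 7 above. For the 14 S phase genes the medians were -0.078 and 0.295 at 0 min, 0.271 and 0.416 at 60 min, and 0.328 and 0.553 at 120 min. The S phase difference at 0 min thus changed sign between the replicates, while those after LPS did not. Both derived lines were compared with the same RAW264.7 libraries.

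**Figure D4:**
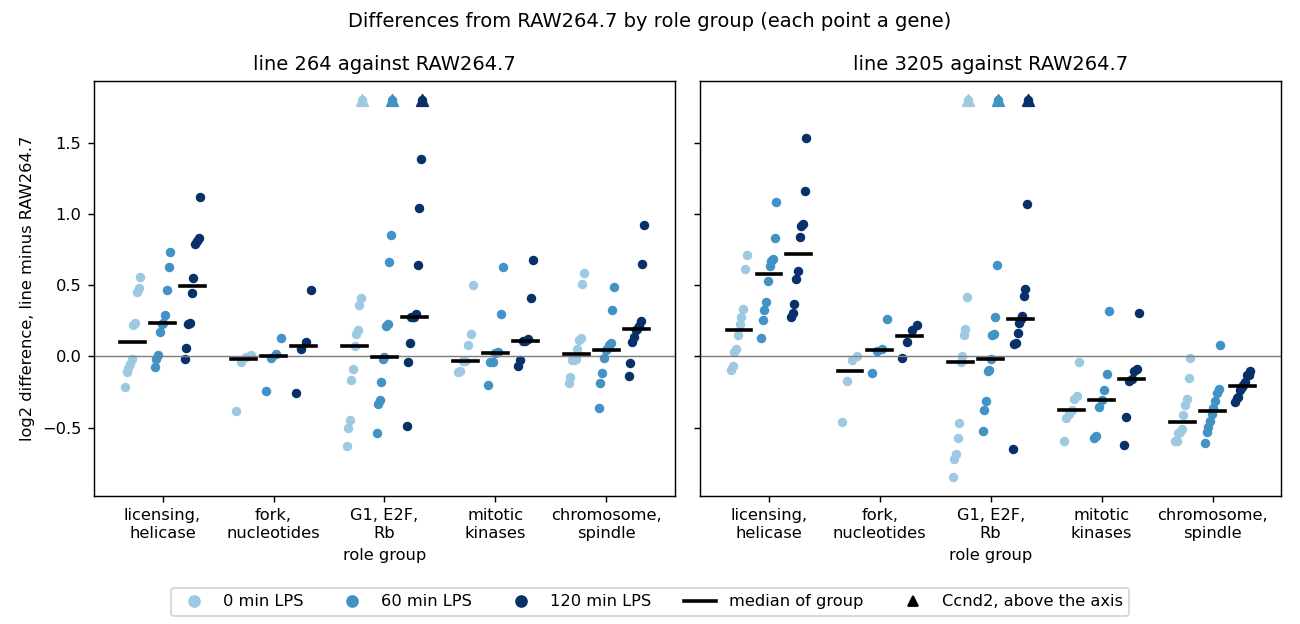
log2 difference from RAW264.7 of each gene (points) by role group, for line 264 on the left and line 3205 on the right, at 0, 60 and 120 min of LPS. Black bars are group medians and triangles mark Ccnd2, which lies above the axis; in line 3205 the licensing genes lie above 0 after LPS (medians 0.58 and 0.718), and the 2 mitotic groups lie mostly below it.

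Among the mitotic cyclins and kinases, Ube2c, the ubiquitin-conjugating enzyme of the anaphase-promoting complex, had 2914 and 4471 normalized reads in line 3205 at 0 min and 5620 and 5302 in RAW264.7. It was lower by 0.60 ± 0.17 (limma adjusted p = 0.0437), kept only without line 3205 replicate 2 (up to 0.201 otherwise). Ccnb2, cyclin B2, had 3678 and 3312 in line 3205 at 60 min and 5303 and 5085 in RAW264.7. It was lower by 0.57 ± 0.16 (limma adjusted p = 0.0394), lost without any 1 library compared (0.0982 to 0.21). Plk1, a mitotic kinase, was higher in line 264, with 4500 and 4215 normalized reads at 60 min against 2714 and 2939 in RAW264.7. It was higher by 0.62 ± 0.18 (limma adjusted p = 0.0412), and this too was lost without any 1 library compared (0.118 to 0.193).

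Of the chromosome and spindle genes, Cenpf (chr1:189640606-189688107), which encodes a kinetochore protein, separated all 3 lines. At 0 min it had 12125 and 9253 normalized reads in line 264, 4689 and 4663 in line 3205 and 7342 and 6770 in RAW264.7. At 60 min it had 11853 and 9249 in line 264, 4942 and 4883 in line 3205 and 7210 and 7770 in RAW264.7. At 120 min it had 6639 and 6753 in line 264, 2328 and 3440 in line 3205 and 3451 and 3626 in RAW264.7. No 2 lines overlapped at any time, though line 3205 replicate 2 and RAW264.7 replicate 1 were close at 120 min (3440 and 3451). Line 3205 was below line 264 by 1.18 ± 0.15 (limma adjusted p = 0.00108), 1.09 ± 0.15 (0.0016) and 1.24 ± 0.19 (0.00275) at 0, 60 and 120 min, and these calls remained without any 1 library.

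Against RAW264.7, Cenpf in line 264 was higher by 0.59 ± 0.15 at 0 min (limma adjusted p = 0.0319) and 0.92 ± 0.19 at 120 min (0.00927). Line 264 was not called at 60 min. Line 3205 was lower by 0.59 ± 0.15 at 0 min (limma adjusted p = 0.0292) and 0.61 ± 0.15 at 60 min (0.0248), and was not called at 120 min. Both line 3205 calls were lost without any 1 library compared (0.0794 to 0.167). The line 264 call at 0 min was kept only without line 264 replicate 2, and that at 120 min was lost without line 264 replicate 2 or RAW264.7 replicate 1 (up to 0.199 and 0.0723).

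Kif11 (chr19:37376382-37421863), the motor that pushes spindle poles apart, had 12665 and 10768 normalized reads in line 264 at 0 min, 5337 and 7137 in line 3205 and 8328 and 8075 in RAW264.7. After 60 min it stood at 11976 and 11210 in line 264, 6755 and 7217 in line 3205 and 9358 and 9125 in RAW264.7. At 120 min they were 7387 and 8637 in line 264, 3941 and 5508 in line 3205 and 4888 and 5334 in RAW264.7, with line 3205 and RAW264.7 overlapping at that time alone. Line 3205 was below line 264 by 0.92 ± 0.15 at 0 min (limma adjusted p = 0.00304), 0.73 ± 0.15 at 60 min (0.0107) and 0.78 ± 0.19 at 120 min (0.0337). The 0 min call remained without any 1 library. The 60 min call was lost without any 1 library compared (0.0514 to 0.0886), and that at 120 min was kept only without line 3205 replicate 2 (up to 0.232). Line 264 was above RAW264.7 by 0.51 ± 0.15 at 0 min (limma adjusted p = 0.0463), lost without any 1 library compared (0.0539 to 0.233).

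Top2a, the topoisomerase that untangles sister chromosomes, had 17457 and 23607 normalized reads in line 3205 at 0 min, 33297 and 31167 in line 264 and 28096 and 30746 in RAW264.7. Line 3205 was lower than line 264 by 0.67 ± 0.16 (limma adjusted p = 0.0237) and lower than RAW264.7 by 0.53 ± 0.16 (0.048). Cenpa, the centromeric histone, had 3165 and 3755 normalized reads in line 3205 at 0 min and 4647 and 5176 in RAW264.7, and was lower by 0.51 ± 0.12 (limma adjusted p = 0.0182). These 3 calls remained only without line 3205 replicate 2 (0.105, 0.229 and 0.132 at most in the other fits). Mki67, whose product is the Ki-67 proliferation marker, had 18610 and 28412 normalized reads in line 3205 at 0 min and 33453 and 36106 in RAW264.7, without overlap and without a call (called under the block, 0.0171).

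The promoters of the members were searched for letters known from E2F and mitotic promoters, without a test. RefSeq promoters of GRCm38.p6, from 250 bases before to 50 after a start, matched 34 of the 42 genes. E2F-type letters (TTTGGCGC, TTTCCCGC or GGCGGGAA, where the last and the one before it can overlap on opposite strands) were found on either strand in 6 of 8 licensing genes, 0 of 15 mitotic genes and 3.7% of all 27025 genes. Letters of the cell cycle homology region (TTTGAA or TTCGAA) were found on either strand in 12 of 15 mitotic genes, 2 of 8 licensing genes and 21.7% of all genes. CCAAT, the letters that bind NF-Y, was found in 14 of the 15 mitotic genes, 6 of 8 licensing genes and 41.1% of all genes. A match describes letters only. The sequences below are the 100 bases before the start, 5′ to 3′ on the gene's strand, of 2 S phase genes with E2F-type letters and 4 mitotic genes with cell cycle homology letters, which are in capitals on either strand.
Mcm6 (chr1:128359706-128359805, minus): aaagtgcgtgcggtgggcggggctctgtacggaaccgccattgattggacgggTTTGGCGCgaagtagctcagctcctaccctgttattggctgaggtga
Rrm1 (chr7:102441595-102441694, plus): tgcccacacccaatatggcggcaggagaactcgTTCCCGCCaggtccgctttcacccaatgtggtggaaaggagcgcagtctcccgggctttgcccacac
Top2a (chr11:99024190-99024289, minus): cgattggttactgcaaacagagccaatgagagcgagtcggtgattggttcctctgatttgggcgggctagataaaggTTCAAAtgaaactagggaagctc
Kif11 (chr19:37376282-37376381, plus): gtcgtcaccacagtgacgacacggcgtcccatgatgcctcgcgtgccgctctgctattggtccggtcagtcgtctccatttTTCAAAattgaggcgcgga
Ube2c (chr2:164769829-164769928, plus): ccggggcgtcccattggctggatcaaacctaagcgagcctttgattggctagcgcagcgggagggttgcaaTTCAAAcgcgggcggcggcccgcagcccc
Cdk1 (chr10:69352913-69353012, minus): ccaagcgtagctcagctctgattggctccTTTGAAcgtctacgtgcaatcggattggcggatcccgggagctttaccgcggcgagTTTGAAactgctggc

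The capitals of Mcm6 begin 47 bases before the start and those of Rrm1 67 bases before it. In Top2a, Kif11 and Ube2c they begin 23, 19 and 29 bases before the start, and Cdk1 holds 2 matches, at 71 and 15. Of these genes Mcm6 was higher and Top2a and Ube2c lower in line 3205 than in RAW264.7 in the comparisons above, while Rrm1, Kif11 and Cdk1 were not called there. Kif11 was called higher in line 264 than in RAW264.7 at 0 min, and lower in line 3205 than in line 264. Whether the letters go with these differences was not tested.

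LPS lowered E2f2 in all 3 lines by 120 min. It had 446 and 483 normalized reads at 120 min in line 264, against 1648 and 1410 at 0 min. In line 3205 it had 460 and 579 at 120 min, against 1139 and 1167 at 0 min. In RAW264.7 it had 330 and 446 at 120 min, against 2090 and 2054 at 0 min. No 120 min library overlapped with the 0 min libraries of its line. The log2 difference was -1.71 ± 0.18 in line 264 (limma adjusted p = 0.00054), -1.16 ± 0.18 in line 3205 (0.00561) and -2.43 ± 0.18 in RAW264.7 (4.79e-05). The calls in line 264 and RAW264.7 remained without any 1 library, and that in line 3205 missed without its 120 min replicate 1 (0.0562). At 60 min E2f2 had 1324 and 1370 in RAW264.7, a fall of 0.62 ± 0.12 (limma adjusted p = 0.019) that was lost without any 1 library compared (0.118 to 0.137).

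Beyond E2f2, RAW264.7 was the line with further calls at 120 min. There 4 of the 42 fell and 1 rose, where 10.6% of all genes were called (5.08% higher, 5.52% lower), and 13 fell and 2 rose under the block, where 23.7% of all genes were called (11.3% higher, 12.4% lower). The median over the 42 was -0.266 and 36 of 42 lay below 0, where the median of all genes was 0 and 49.9% lay above it. In 26 of 42, both 120 min libraries lay below both 0 min libraries, which held for 27.8% of all genes. Within replicate 1 the median over the 42 was -0.294 and within replicate 2 it was -0.225.

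Ccne1 had 782 and 1211 normalized reads at 120 min in RAW264.7, against 1867 and 2288 at 0 min, a fall of 1.09 ± 0.26 (limma adjusted p = 0.0257). Ccne2, cyclin E2, had 942 and 1245 at 120 min, against 2145 and 2038 at 0 min, a fall of 0.95 ± 0.26 (limma adjusted p = 0.0465). Cenpf had 3451 and 3626 at 120 min, against 7342 and 6770 at 0 min, a fall of 0.99 ± 0.19 (limma adjusted p = 0.00829). None of these overlapped between the times. Ccne2 was lost without any 1 library compared (0.0801 to 0.273), and Ccne1 and Cenpf were kept only without the RAW264.7 120 min replicate 2 (up to 0.197 and 0.0727 otherwise).

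Ccnd2 rose in RAW264.7, with 246 and 253 normalized reads at 120 min, against 128 and 140 at 0 min, by 0.89 ± 0.24 (limma adjusted p = 0.0414). That call was lost without any 1 library compared (0.148 to 0.203) and in edgeR (0.0733). Cdc6 had 446 and 788 at 120 min in RAW264.7, against 1837 and 2201 at 0 min, a log2 difference of -1.76 ± 0.50 that missed the threshold (limma adjusted p = 0.0521) and was called under the block (0.000318). Mki67 and Plk1 differed by -0.71 ± 0.35 and -0.72 ± 0.21, also without a call (limma adjusted p = 0.257 and 0.0593) and with one under the block (0.0393 and 0.0036). Cdk6 was above its 0 min level by 0.85 ± 0.28 in line 264, 0.77 ± 0.28 in line 3205 and 0.70 ± 0.28 in RAW264.7, without a call in any line (limma adjusted p = 0.136, 0.191 and 0.166) and with a call in each under the block (0.00202, 0.00378 and 0.00372).

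The derived lines had fewer calls with LPS. At 120 min line 264 had 1 call, E2f2, where 5.43% of all genes were called, and line 3205 had the same 1, where 5.03% were. Under the block these were 6 and 3, where 16.4% and 14.3% of all genes were called. The median over the 42 at 120 min was -0.1 in line 264 and 0.011 in line 3205. At 60 min none was called in line 264 (1.19% of all genes; 1 at unadjusted p below 0.05) or line 3205 (1.23%; 2 at unadjusted p below 0.05), and edgeR and DESeq2 called 0 in each. RAW264.7 had E2f2 alone at 60 min, where 2.98% of all genes were called. Under the block the 60 min calls were 0 in line 264 (3.99% of all genes), 2 in line 3205 (3.99%) and 2 in RAW264.7 (8.08%). In line 3205 at 60 min 37 of 42 lay above 0, with a median of 0.192; within replicate 1 that median was 0.348 and within replicate 2 it was 0.051.

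Fewer calls in 1 line do not show that its response differs, so the response of each derived line was tested against that of RAW264.7. None of the 42 was called in the 4 tests, where at most 4 of all genes were (0.0173%, 0.0229%, 0.00578% and 0.00573% for line 264 at 60 and 120 min and line 3205 at 60 and 120 min). At unadjusted p below 0.05 there were 0, 2, 2 and 4 of 42, edgeR called 0 in each, and DESeq2 called 1, in line 3205 at 120 min. That gene was E2f2, for which the response of line 3205 minus that of RAW264.7 was 1.27 ± 0.25 on the log2 scale (limma adjusted p = 0.276, DESeq2 0.00188, and 0.0336 under the block). The block also called Ccne1 there, with a difference of 0.87 ± 0.37 (limma adjusted p = 0.997, and 0.0465 under the block). These 2 were the block's calls, where it called 0.682% of all genes. It called none of the 42 for line 264 at 60 and 120 min (0.127% and 0.258% of all genes) or line 3205 at 60 min (0.0809%). Over all 42, 39 differences were above 0 at 120 min in line 264 (median 0.151) and 38 in line 3205 (median 0.255), against 50.3% and 49.6% of all genes. The 14 S phase genes were all above 0 in both (medians 0.181 and 0.344), and so were 16 and 15 of the 17 mitotic genes (medians 0.135 and 0.219). Both lines were set against the same RAW264.7 libraries.

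Other regulators of the same steps were read from further lists. FoxM1, a transcription factor that acts on mitotic genes, was low in line 3205: Foxm1 had 1748 and 2201 normalized reads at 0 min in line 3205, 4328 and 4513 in line 264 and 5171 and 5966 in RAW264.7. Line 3205 was below RAW264.7 by 1.5 ± 0.13 at 0 min (limma adjusted p = 5.05e-05), 1.10 ± 0.13 at 60 min (0.00036) and 0.99 ± 0.20 at 120 min (0.00888; up to 0.0737 and not called without line 3205 replicate 1 or RAW264.7 replicate 2). E2f6, a repressive E2F, had 393 and 543 normalized reads at 0 min in line 3205, 1887 and 2027 in line 264 and 1592 and 1633 in RAW264.7. It was below RAW264.7 by 1.8 ± 0.16 (limma adjusted p = 6.59e-05), 1.67 ± 0.16 (0.000109) and 1.29 ± 0.17 (0.000776) at 0, 60 and 120 min, without loss of a call when 1 library was left out. Smc4, a condensin subunit, had 5101 and 6968 in line 3205 at 0 min, 13260 and 11745 in line 264 and 13727 and 12195 in RAW264.7. It was lower than in RAW264.7 by 1.12 ± 0.15 (limma adjusted p = 0.000962), and by 1.22 ± 0.15 (0.000538) and 1.02 ± 0.18 (0.00421) at 60 and 120 min.

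Of 17 such E2F, pocket protein and DREAM regulators, line 3205 had 1 higher and 2 lower than RAW264.7 at each time. Of all genes 8.42%, 8.95% and 7.94% were higher and 5.89%, 6.46% and 5.99% lower at 0, 60 and 120 min. Line 264 had 1, 2 and 2 of the 17 higher and 0, 0 and 1 lower. There 7.61%, 8.46% and 7.33% of all genes were higher and 5.57%, 6.8% and 6.13% lower. The higher one in line 3205 was Tfdp2, an E2F partner, which was called higher in line 264 at each time too. Its 0 and 60 min calls were lost without either RAW264.7 library or line replicate 1, and in line 264 at 60 min also without replicate 2 (adjusted p up to 0.2), and those at 120 min without RAW264.7 replicate 1 (up to 0.0586). Of 32 further mitotic genes, line 3205 had 0, 2 and 1 higher and 5, 5 and 2 lower than RAW264.7 at 0, 60 and 120 min, where 5.89%, 6.46% and 5.99% of all genes were lower. Line 264 had 0, 0 and 1 higher and 1, 1 and 0 lower, where 5.57%, 6.8% and 6.13% of all genes were lower. Of 36 further replication genes, line 3205 had 2, 4 and 3 higher, where 8.42%, 8.95% and 7.94% of all genes were. Line 264 had 2, 2 and 0 higher, where 7.61%, 8.46% and 7.33% were, and none was lower in either line.

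The inhibitors of cyclin-dependent kinases did not all move one way with LPS in line 264 and RAW264.7. Of 4 tested at 120 min, 1 rose and 1 fell in line 264, 1 rose and none fell in line 3205, and 1 rose and 3 fell in RAW264.7, where 5.43%, 5.03% and 10.6% of all genes were called in either direction. The fallers in RAW264.7 were Cdkn1b, Cdkn2c and Cdkn2d, by 1.37 ± 0.33, 0.99 ± 0.21 and 1.63 ± 0.37 (limma adjusted p = 0.0275, 0.0134 and 0.0197). The first 2 were lost without any 1 library compared, and Cdkn2d was kept only without the 120 min replicate 1 (up to 0.177, 0.106 and 0.148). In line 264 Cdkn2c fell by 0.93 ± 0.21 (limma adjusted p = 0.0303), lost without any 1 library compared (up to 0.202). The riser was Cdkn1a in each line. Cdkn1a, which encodes the p21 inhibitor of cyclin-dependent kinases, had 23577 and 25912 normalized reads at 120 min in line 264, against 4005 and 5567 at 0 min. In line 3205 it had 12605 and 8586 at 120 min, against 3411 and 1578 at 0 min, and in RAW264.7 it had 24586 and 26125 at 120 min, against 5462 and 5661 at 0 min. The rise was 2.39 ± 0.32 in line 264 (limma adjusted p = 0.00233), 2.16 ± 0.32 in line 3205 (0.00435) and 2.19 ± 0.32 in RAW264.7 (0.00236). Of the 4 inhibitors, line 3205 had 3, 2 and 1 called lower than RAW264.7 at 0, 60 and 120 min and none higher. Of all genes 5.89%, 6.46% and 5.99% were called lower. Line 264 had 1, 1 and 0 called lower, where 5.57%, 6.8% and 6.13% of all genes were. Cdkn1a in line 3205 stayed below RAW264.7 by 1.26 ± 0.33, 1.33 ± 0.33 and 1.28 ± 0.32 at 0, 60 and 120 min (limma adjusted p = 0.0311, 0.0236 and 0.0252). Each of these was lost without either RAW264.7 library or without line 3205 replicate 2 (up to 0.139, 0.174 and 0.166). Of 5 antiproliferative early genes, 1 was called at 60 min in each line. Of all genes, 1.19%, 1.23% and 2.98% were called there in line 264, line 3205 and RAW264.7. The 1 called was Btg2 in each line. It had 66636 and 43776 at 60 min in line 264, against 2845 and 1991 at 0 min. In RAW264.7 it had 23232 and 34672 at 60 min, against 831 and 973 at 0 min. It was higher at 60 min by 4.50 ± 0.53 in line 264 (limma adjusted p = 0.00185), 3.81 ± 0.53 in line 3205 (0.00559) and 4.98 ± 0.53 in RAW264.7 (0.000682), with the line 3205 call lost without its 60 min replicate 1 (0.0613). In line 3205 it had 45684 and 20971 at 60 min, against 4013 and 1218 at 0 min. Of the 17 E2F, pocket protein and DREAM regulators, 1, 0 and 5 fell at 120 min in line 264, line 3205 and RAW264.7. Of the 36 further replication genes, 3, 2 and 4 fell, and none of either list rose. Of the 32 further mitotic genes, 1 rose and 5 fell at 120 min in line 264, none rose and 4 fell in line 3205, and 1 rose and 6 fell in RAW264.7. Of all genes 5.43%, 5.03% and 10.6% were called in either direction, and in RAW264.7 5.08% were higher and 5.52% lower. The riser was Zwint, a kinetochore gene, higher by 0.60 ± 0.14 in line 264 (limma adjusted p = 0.0413) and 0.60 ± 0.14 in RAW264.7 (0.0255), both lost without any 1 library compared (up to 0.217 and 0.14). The spindle gene Aspm fell by 1.12 ± 0.15 in line 264 (limma adjusted p = 0.00267), 1.13 ± 0.15 in line 3205 (0.00265) and 1.32 ± 0.15 in RAW264.7 (0.000665) at 120 min, calls that remained without any 1 library.

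In primary bone marrow macrophages the gene lists used here held 1 of the 42 genes, Mki67. These lists appear to hold genes picked for a rise with LPS. A rise of a listed gene would then be fixed by that choice, and members outside the lists cannot be read as unchanged. As for Mki67, its values were as follows. In the authors' deposited table it had a log2 fold change of 2.73 ± 0.14 (standard error) with stimulation, with an adjusted p of 3.7e-32, though the time behind that value is not clear. In the ChIP table, over 193 listed genes, the signal of phosphorylated serine 31 of H3.3 (H3S31ph) at Mki67 was 6.63 at 60 min and 1.86 at 0 min, a 3.56-fold difference where the median of the listed genes was 3.83. H3S28ph was 2.86-fold, H3.3 2.13-fold, H3K36me3 1.76-fold, H3K27ac 1.6-fold and H3K36me2 0.918-fold at 60 min over 0 min. With 1 ChIP library per time these ratios have no replicate check. Mki67 RNA in the cell lines was not called with LPS in any line without the replicate block. In line 264 and RAW264.7 both libraries at 120 min lay below both at 0 min, and in line 3205 they overlapped. The fall in RAW264.7 was called under the block.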

How the data were processed

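Per the submitters' processing notes, the tools named for RNA were Trim Galore (0.5.0), STAR (2.4.2), featureCounts in Subread (1.4.6), DESeq2 and R (3.4.0), with the mm10 build, and for ChIP Bowtie2 (2.3.4.1). The deposited RNA signal equals the reads of a gene over a library's size factor: 100% of values were whole multiples of a step to within 0.1 read. The deposited ChIP values are signal per gene in the authors' scaling. The authors' table for primary macrophages gives log2 fold changes and adjusted p-values. Of 74 samples, 44 were not analysed here.

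Because the unit was not raw counts, limma 3.58.1 (R 4.3.3, intensity trend) was fitted to log2(value + 1), separately for the 60 and 120 min tables (12 libraries each), keeping genes with a mean of at least 1. Line comparisons at 0 min used the 60 min table. Alternatives were edgeR 4.0.16 and DESeq2 1.42.0 run on recovered reads, no trend, no filter, pseudocounts of 0.5 and 5, TMM scaling, a replicate block and leaving out 1 library. The fits were tested on simulated data. Replicate numbers were taken to pair the libraries, since replicate 1 minus 2 correlated between groups at 0.16 to 0.56 (60 min table) and 0.22 to 0.56 (120 min table) over 15 pairs of groups.

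The 42 genes and the further lists were chosen with earlier results of these data known. Values in every library are given for members called in a comparison, up to 6 per role group and up to 8 for LPS, and up to 4 genes are named per further list by smallest p. Uncalled differences of Ccnd1, Ccnd3, Cdc6, Cdk6, Mki67 and Plk1 were picked after their values were seen.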

Additional observations from a re-analysis of the deposited data

How the results depend on the processing

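The replicate block, whose numbers were taken to pair the libraries, raised the calls among the 42 genes. For line 264 against RAW264.7 at 0, 60 and 120 min they were 12, 10 and 14 (4, 3 and 5 without the block), and 12, 11 and 14 in edgeR with the block. For line 3205 against RAW264.7 they were 16, 20 and 14 (7, 6 and 3 without), and 16, 18 and 15 in edgeR with the block. For line 3205 against line 264 they were 14, 8 and 7 (3, 2 and 2 without), and 15, 9 and 7 in edgeR with the block. For LPS at 60 and 120 min they were 0 and 6 in line 264 (0 and 1 without; edgeR with the block 1 and 6), 2 and 3 in line 3205 (0 and 1 without; edgeR 2 and 3) and 2 and 15 in RAW264.7 (1 and 5 without; edgeR 2 and 15). For the 120 min response of line 3205 minus RAW264.7 the block gave 2 and edgeR with it 3, against 0.

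Without the intensity trend the calls fell to 1, 1 and 3 for line 264, 2, 2 and 1 for line 3205 against RAW264.7, 1 for line 3205 against line 264 at 120 min, and 0 and 2 for LPS in RAW264.7 at 60 and 120 min. Without the filter they were 4 for line 3205 at 0 min and 3 for LPS at 120 min in RAW264.7, where TMM gave 8. edgeR without the block gave 1 for line 3205 against line 264 at 120 min. DESeq2 gave 9, 5 and 5 for line 3205 against line 264, 7 for line 3205 against RAW264.7 at 120 min, and for LPS at 120 min 3 in line 264, 2 in line 3205 and 9 in RAW264.7, with 1 for the response of line 3205. The 0 min libraries of the 120 min table gave 1 for line 264 and 3 for line 3205. A single fit over all 18 libraries, chosen like the edgeR block after seeing the data, gave 2 for line 264 at 0 min, 7 for line 3205 at 120 min, 6, 4 and 5 for line 3205 against line 264, 2, 2 and 9 for LPS at 120 min in line 264, line 3205 and RAW264.7, and 1 for the response of line 3205.

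Leaving out 1 library gave 1 to 3, 1 to 2 and 1 to 4 calls for line 264 at 0, 60 and 120 min, 2 to 15, 1 to 2 and 1 to 5 for line 3205, and 2 to 13, 1 and 1 to 2 for line 3205 against line 264. The 15 and 13 were both without line 3205 replicate 2 at 0 min. For LPS it gave 0 at 60 min and 1 at 120 min in line 264, 0 to 1 and 0 to 2 in line 3205, and 0 and 1 to 3 in RAW264.7. The log2 difference of Cdt1 in line 3205 at 120 min ranged from -0.087 without line 3205 replicate 2, where it reversed, to 1.28 without its replicate 1, and the 60 min response difference of Rb1 in line 3205 from -1.05 without its 0 min replicate 2 to 0.03, reversed, without its 0 min replicate 1. Of the other single-gene values under these fits, 559 kept direction and side of the threshold, 98 lost a call and 17 gained one. Of the role group medians, 554 moved by less than the median limma standard error of their genes and 90 by more. The S phase median of line 3205 against RAW264.7 ranged from -0.234 to 0.419 at 0 min, 0.193 to 0.517 at 60 min and 0.1 to 0.745 at 120 min, and its mitotic median from -0.62 to -0.186, -0.418 to -0.291 and -0.374 to 0.033, where it was above 0 without its 120 min replicate 1. Causes were not tested. With 2 libraries a group, the smallest called log2 difference of a member was -0.44 (E2f2 in line 264 at 0 min).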
